A study of Mus musculus with 7 samples.

Results

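Among the RNAs of LSK cells, 8 genes between 43 and 55 Mb of chromosome 14 (GRCm38) were taken as a group: the ribonuclease genes Rnase4 and Ang, the meiotic crossover gene Ccnb1ip1, the phosphatase subunit gene Ppp1r3e, the noncoding genes Gm26782 and Gm43305, and the predicted genes Gm7233 and Gm8113. They are 8 of the 48440 genes in the table, chosen by symbol because most of them differed between the groups of this same comparison, so their differences and calls are given as a description and are no independent test. LSK cells (lineage-negative, Sca1 and cKit positive) are the fraction of bone marrow (BM) in which hematopoietic stem cells (HSCs) and multipotent progenitors are found. C57BL/6 recipients were lethally irradiated (9.5 Gy) and given unfractionated BM of wild-type donors or of donors with a constitutive, endonuclease-mediated PROSER1 KO, and LSK cells were sorted at day 77. RNA of 4 wild-type and 3 PROSER1 KO samples was sequenced, 1 library each. The donor deletion is in all tissues, so that any cell sorted with the LSK cells carries it too unless it came from the irradiated host. The methods call the libraries biological replicates, and whether a library held 1 animal or several is not given in the sources used here, so p-values measure only the spread between these libraries. The deposited values are normalized counts, which are read pairs per gene divided by 1 size factor per library.

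Each library held 33143619 to 45140743 read pairs on genes, and an observed 0 leaves room for 3 read pairs (2.54 to 3.48 normalized counts), by counting error alone. Proser1, the targeted gene, had normalized counts of 2019, 2153, 2103 and 2077 in the wild-type libraries and 2464, 2359 and 2338 in the PROSER1 KO libraries. Its mRNA was thus not lower in the libraries that carry the PROSER1 KO label, and which group is the deficient one is known here from that label alone. Markers of LSK cells and HSCs were present in all libraries (Kit, for example, at 25535 to 32357 normalized counts). So were those of other cells. The 9 plasma and B cell markers summed to between 1378573 and 3223235 in wild-type and between 1299997 and 1907742 in PROSER1 KO libraries. The 11 LSK and HSC markers summed to less, between 119582 and 133633 in wild-type and between 119322 and 123888 in PROSER1 KO libraries. Of the 9 plasma and B cell markers, 8 had lower and 1 higher values in PROSER1 KO libraries (median difference -0.18 on the log2(normalized count + 1) scale). In none of the 8 marker lists was a gene at 0 in all libraries.

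RNase 4 and angiogenin are small secreted enzymes of the ribonuclease A family. In mammals their genes share a start and 5' exons, and splicing to separate coding exons decides which protein a transcript makes. Angiogenin cleaves tRNAs under stress and is known in BM as a niche factor that keeps stem cells quiescent. The product of Ccnb1ip1 (also called HEI10) is a ubiquitin ligase that marks crossover sites in meiosis, and Ppp1r3e encodes a subunit that brings protein phosphatase 1 to glycogen.

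limma was fitted on log2(normalized count + 1) to the 16251 genes whose mean reached 10 normalized counts. A gene was called when it differed by more than 1.5-fold with an adjusted p-value (Benjamini-Hochberg) under 0.05. All 8 genes passed the filter on the mean, Gm7233 only through the libraries labelled PROSER1 KO, since it is at 0 in wild-type. By this rule 6 of them were called, beside 0.258% of all genes tested, and edgeR, run on whole read pairs recovered from the normalized counts, called the same number (0.246% of all). Higher in those labelled PROSER1 KO were 2, Rnase4 and Gm7233 (0.123% of all genes tested). Lower were 4, Gm8113, Gm26782, Gm43305 and Ppp1r3e (0.135%). In 7 of the 8 the groups did not overlap, 3 with higher values (5.17% of all genes tested) and 4 with lower values (4.83%), with Ang as the exception. Since the genes were picked on this contrast, nothing is read from these shares. In bulk RNA, a change in the number of cells that make a transcript and a change in its amount per cell cannot be told apart.

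**Figure D1:**
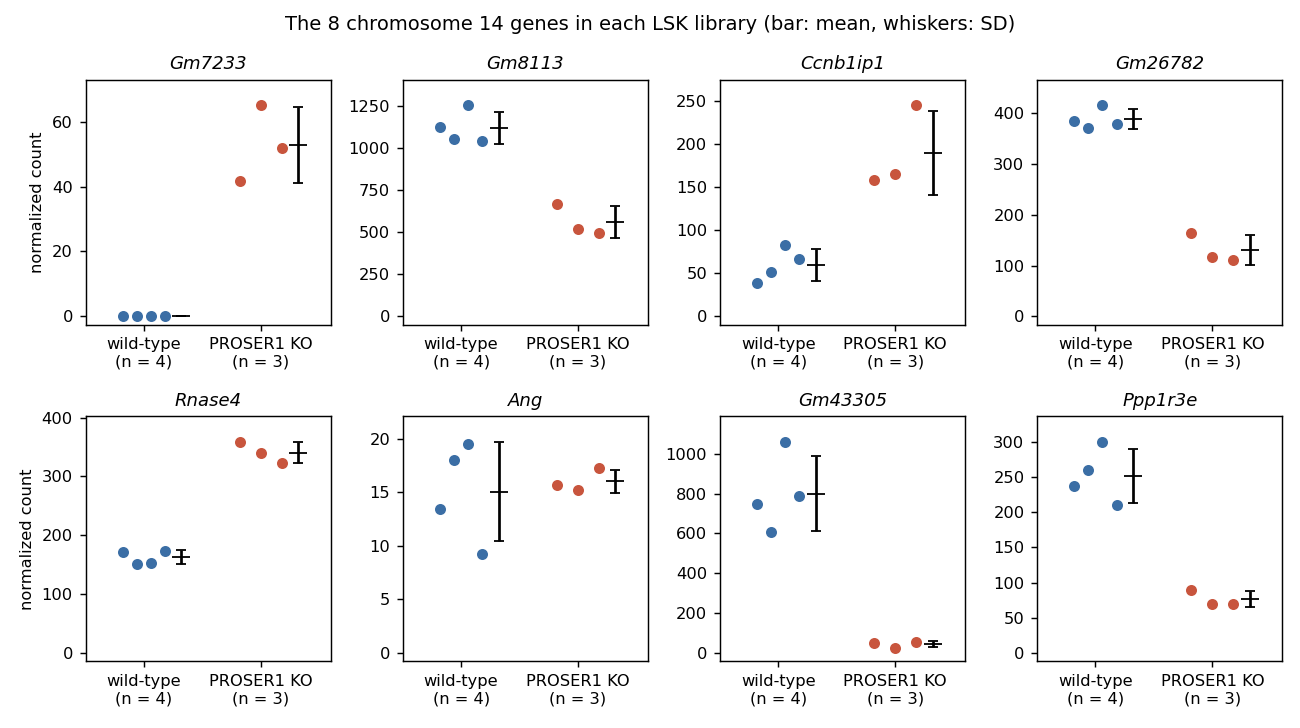
Normalized counts (vertical axes, linear, each with its own range) of the 8 genes in the 4 wild-type (blue) and 3 PROSER1 KO (red) LSK libraries, 1 point per library in replicate order, with the group mean and SD beside the points. The groups overlap for Ang and for none of the other genes, and Gm7233 lies at 0 in every wild-type library.

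Rnase4 (ENSMUSG00000021876, chromosome 14, 51091077 to 51106151, plus strand) had normalized counts of 171, 151, 153 and 174 in wild-type replicates 1 to 4 and of 359, 339 and 324 in PROSER1 KO replicates 1 to 3. Every PROSER1 KO library stood above every wild-type library, and the libraries of a group lay close together. On average there were 162 ± 11.8 (SD, n = 4) and 341 ± 17.7 normalized counts (SD, n = 3), a 2.10-fold higher level and a difference of 1.07 on the log2(normalized count + 1) scale. Omitting any 1 library gave differences from 1.03 to 1.10.

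Ang (ENSMUSG00000072115, chromosome 14, 51091150 to 51102009, plus strand), which encodes angiogenin, had 13.5, 18.0, 19.5 and 9.27 normalized counts in wild-type, against 15.6, 15.2 and 17.3 in those labelled PROSER1 KO. The PROSER1 KO values lay inside the wild-type range. The difference was 0.13 on the log2 scale and became -0.06 without wild-type replicate 4. These values rest on 8 to 20 read pairs per library, and the wild-type coefficient of variation was 30.9%, against 7.29% for Rnase4.

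Each gene has 3 exons in GENCODE release M21, of which the first and the second overlap those of the other gene on the same strand, by 104 bases (51091150 to 51091253) and 115 bases (51096359 to 51096473). Together these are 13.4% of the exon bases of Rnase4 and 18.2% of those of Ang, and read pairs within them are uncertain between the genes. The last exon, of 1345 bases in Rnase4 (51104807 to 51106151) and of 624 bases in Ang (51101386 to 51102009), is separate. Of the 50-base windows of the Rnase4 transcripts, 7.75% also occur in another gene's transcripts, and Ang was that gene. Of those of Ang, 14.5% occur elsewhere, in Rnase4 and in Ang2, which was at 0 in all libraries.

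The start regions are shown because Rnase4 was higher and Ang lay within the wild-type range, although their first exons overlap. RefSeq (GRCm38.p6) gives both genes 1 common window of 250 bases before to 50 bases after a start, at chr14:51090827-51091126 on the plus strand, and gives Rnase4 a further one at chr14:51095750-51096049 on the plus strand, which in GENCODE lies at the beginning of the second exon of Ang (51096000). Capitals mark CG dinucleotides, the sites of DNA methylation.
Rnase4 and Ang, common window: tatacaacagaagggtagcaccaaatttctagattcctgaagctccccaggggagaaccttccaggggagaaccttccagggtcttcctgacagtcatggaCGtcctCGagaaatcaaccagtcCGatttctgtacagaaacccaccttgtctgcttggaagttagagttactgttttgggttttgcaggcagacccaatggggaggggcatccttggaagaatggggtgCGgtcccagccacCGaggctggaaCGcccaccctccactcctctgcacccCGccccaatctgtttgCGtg
Rnase4, second window: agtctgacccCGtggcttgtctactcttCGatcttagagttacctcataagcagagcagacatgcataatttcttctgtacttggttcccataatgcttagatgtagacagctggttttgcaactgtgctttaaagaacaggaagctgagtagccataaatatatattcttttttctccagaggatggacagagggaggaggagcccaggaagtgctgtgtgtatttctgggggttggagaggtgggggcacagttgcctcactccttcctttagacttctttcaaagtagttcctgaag

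The common window holds 8 CG dinucleotides, and 48.6% of the 32851 promoter windows of RefSeq hold at least as many. The second window holds 2, a number that 85.9% of windows reach. The GC-box letters GGGCGG (searched on both strands) occur 1 time in the common window and in 35.7% of all windows, and not in the second. The TATA box (TATAAA), the letters bound by GATA factors (AGATAA), by Runx factors (TGTGGT) and by Ets factors (GAGGAA), and the E-box (CACGTG), searched on both strands, occur in neither. The table of gene counts does not say from which start the additional Rnase4 reads came.

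Ccnb1ip1 (ENSMUSG00000071470, chromosome 14, 50789248 to 50807732, minus strand), the crossover gene, had normalized counts of 38.5, 51.4, 82.8 and 66.1 in wild-type and of 159, 166 and 246 in those labelled PROSER1 KO. The lowest PROSER1 KO library was above the highest wild-type library. On average it had 59.7 ± 19.1 (SD, n = 4) and 190.1 ± 48.4 normalized counts (SD, n = 3), a 3.19-fold higher level, with a difference of 1.68 on the log2 scale. It was not past the threshold of the comparison and passed in 5 of 20 fits, among them DESeq2 (0.873% of the genes DESeq2 tested were called). Its exon farthest upstream (50807500 to 50807732) is shared over all its 233 bases (12.4% of the exon bases) with Rpph1, the RNA component of RNase P, on the same strand. Rpph1 is listed at 0 to 8.64 normalized counts.

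Ppp1r3e (ENSMUSG00000072494, chromosome 14, 54872669 to 54877550, minus strand), the glycogen-targeting subunit, had 237, 259.6, 300.0 and 209.8 normalized counts in wild-type. It had 89.7, 70.2 and 69.1 in those labelled PROSER1 KO. The highest of these was below every wild-type value. The means of 251.5 ± 38.2 (SD, n = 4) and 76.4 ± 11.6 (SD, n = 3) made a 3.29-fold lower level and a difference of -1.70 on the log2 scale. None of its 50-base windows occur in transcripts of other genes.

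Gm26782 (ENSMUSG00000097431, chromosome 14, 50870324 to 50880603, plus strand) is annotated as an antisense RNA that starts within the first bases of Tep1, a telomerase-associated protein gene of the minus strand. It had normalized counts of 386, 370.5, 416 and 379 in wild-type and of 164, 117 and 111 in those labelled PROSER1 KO. The groups were far apart compared with their spread, at 388 ± 19.8 (SD, n = 4) and 131 ± 28.8 (SD, n = 3), a 2.97-fold lower level and a difference of -1.58 on the log2 scale. Tep1 itself, which shares 144 exon bases with it on the other strand (3.52% of those of Gm26782), had a difference of 0.00 (adjusted p = 0.997 from limma) at 2746 to 3087 normalized counts. The library kit keeps the strand, but the strand setting of the counting is not given in the sources used here, so reads in these bases are uncertain. Of the 50-base windows of Gm26782, 11.7% occur, in either orientation, in transcripts of other genes, 232 of them.

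The start regions of Ccnb1ip1 and Gm26782, whose levels lay on opposite sides of wild-type, follow in the same form. That of Ccnb1ip1 is at chr14:50795679-50795978 on the minus strand, where a later exon of the GENCODE gene begins, and that of Gm26782 is at chr14:50870046-50870345 on the plus strand.
Ccnb1ip1: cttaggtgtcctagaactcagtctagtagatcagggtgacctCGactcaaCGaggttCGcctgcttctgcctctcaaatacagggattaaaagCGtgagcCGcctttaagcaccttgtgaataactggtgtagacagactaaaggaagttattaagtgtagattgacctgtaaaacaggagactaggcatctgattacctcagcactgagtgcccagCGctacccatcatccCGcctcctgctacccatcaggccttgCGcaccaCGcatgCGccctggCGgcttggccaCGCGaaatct
Gm26782: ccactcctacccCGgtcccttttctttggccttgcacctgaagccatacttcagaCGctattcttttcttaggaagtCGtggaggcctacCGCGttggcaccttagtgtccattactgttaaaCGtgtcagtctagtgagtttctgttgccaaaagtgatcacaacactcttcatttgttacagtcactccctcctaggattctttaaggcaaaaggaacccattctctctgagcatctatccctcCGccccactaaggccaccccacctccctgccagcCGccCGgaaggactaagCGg

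Ccnb1ip1 holds 13 CG dinucleotides there (37.9% of all windows hold at least as many) and none of the other letters searched. Gm26782 holds 10 (43.5% of windows), with GGGCGG 2 times over both strands. The median over all windows is 7. Neither stands in the tails of this distribution, whose upper quartile is 20.

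Gm43305 (ENSMUSG00000105703, chromosome 14, 54292443 to 54297456, minus strand), a processed transcript without a known protein, had normalized counts of 745, 606, 1060 and 789 in wild-type. It had 48.0, 27.1 and 56.6 in those labelled PROSER1 KO. No value of either group came near the other, with means of 800.1 ± 190.0 (SD, n = 4) and 43.9 ± 15.2 (SD, n = 3). This was an 18.2-fold lower level, a difference of -4.19 on the log2 scale (-4.40 to -3.88 when any 1 library was omitted).

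The transcripts of Gm43305 share 17.8% of their 50-base windows with 18 other genes, none of them on chromosome 14. The largest share is with Gm42031, a long noncoding RNA of chromosome 8, whose RefSeq start region also holds 169 of the 30-base windows of the Gm43305 start region. Gm42031 had 90.4, 55, 56.3 and 49.8 normalized counts in wild-type, against 98.1, 124 and 134 in those labelled PROSER1 KO. It thus stood on the other side of wild-type from Gm43305 (difference 0.94, adjusted p = 0.228 from limma). Genes that share less with Gm43305 lay on either side. Cep85 (2.91% of windows) was lower without overlap, at 2492 to 2735 normalized counts in wild-type, against 1742 to 1912 in those labelled PROSER1 KO. Chd9 (2.91%) was higher without overlap, at 6099 to 6729 against 6768 to 7391. The part of shared sequence in these levels was not tested. The Gm43305 start region, at chr14:54297439-54297738 on the minus strand, holds 15 CG dinucleotides (34.6% of windows hold at least as many), 1 TATAAA (in 13.6% of windows) and 1 AGATAA (in 11.2%).

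Gm43305 lies near the T cell receptor alpha and delta genes, whose constant gene Trdc had 373.5 normalized counts in PROSER1 KO replicate 1 and 48.7 to 89.7 in the other 6 libraries. The 10 T cell markers summed to between 2287 and 3247 in wild-type and between 1829 and 4670 in PROSER1 KO libraries, the highest again in replicate 1, and none of them was called. The level of Gm43305 in that library (48.0) lay between those of the other PROSER1 KO libraries.

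Gm7233 (ENSMUSG00000094151, chromosome 14, 43179867 to 43187988, plus strand) is a predicted protein-coding gene of unknown function. No wild-type library had a read pair of it, and it stood at 41.7, 65.2 and 51.8 normalized counts in those labelled PROSER1 KO, from 40, 77 and 54 read pairs. Against the highest limit that 3 read pairs give in a wild-type library (3.48 normalized counts), the PROSER1 KO mean of Gm7233 (52.9) was 15.2-fold higher. This ratio leaves out the spread and counting error of the PROSER1 KO libraries. Its fitted difference of 5.73 on the log2 scale depends on the pseudocount and is not a size of the change.

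Of the 50-base windows of the Gm7233 transcript, 52.5% also occur in transcripts of 38 other genes, all on chromosome 14. Of these, 33 are in the table, 30 of them are listed at 0 in every library, and the highest mean among them was 0.935 normalized counts. How read pairs that map equally well to several copies were counted is not given in the sources used here, so the level of Gm7233 is uncertain. Gm8113 is not among these 38 genes.

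Gm8113 (ENSMUSG00000089901, chromosome 14, 43925390 to 43933411, plus strand), a predicted protein-coding gene 737 kb from Gm7233, had normalized counts of 1124, 1050.2, 1254 and 1043 in wild-type. It had 669, 515 and 493 in those labelled PROSER1 KO, all below the lowest wild-type library. The means of 1118 ± 97.8 (SD, n = 4) and 559 ± 95.8 (SD, n = 3) made a 2.00-fold lower level and a difference of -1.01 on the log2 scale. It was called in 19 of 20 fits, the exception being limma without the mean-variance trend.

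The Gm8113 transcript begins and ends with the same 40 bases. At least 20 identical bases at both ends were found in 14 of 134529 transcripts of at least 200 bases in GENCODE. That search stopped at a fixed repeat length, so transcripts with longer repeats were not counted. None of the other 7 genes has such ends. Of the 50-base windows of Gm8113, 41.0% occur in transcripts of 14 other genes, of which 7 are in the table. The 3 protein-coding genes among these were Itga6, Zfp975 and Gpr35. Their values overlapped between the groups, with Itga6, an integrin subunit, at 4786 to 5734 normalized counts in wild-type, against 5314 to 6369 in PROSER1 KO libraries.

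Per length, as FPKM (read pairs scaled to exon length and to the depth of the library), the order of the genes differed between the groups. In wild-type, Gm8113 stood first at 10.5 ± 1.15 FPKM, followed by Gm43305 at 4.08 ± 1.03. Ppp1r3e (2.57 ± 0.46), Rnase4 (2.53 ± 0.12) and Gm26782 (2.42 ± 0.17) overlapped in their values. Ccnb1ip1 at 0.81 ± 0.27 and Ang at 0.32 ± 0.11 were lower, and Gm7233 was at 0 (SD, n = 4 throughout).

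In the libraries labelled PROSER1 KO, Rnase4 (5.38 ± 0.31 FPKM) and Gm8113 (5.31 ± 0.91) stood first with overlapping values, and Ccnb1ip1 followed at 2.60 ± 0.63. Gm26782 (0.82 ± 0.18), Ppp1r3e (0.79 ± 0.12) and Gm7233 (0.78 ± 0.18) overlapped. Ang stood at 0.34 ± 0.02, and Gm43305, second in wild-type, was the lowest at 0.23 ± 0.08 (SD, n = 3 throughout). Rnase4 stood above Ang in every library on this scale.

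The 8 genes span 11698 kb, and the other genes of the same stretch were measured too. The window holds 544 genes of the table, of which 339 were at 0 in all libraries and 105 were tested. Of the 97 tested genes that are not among the 8, 0 were called by limma and 0 by edgeR, 2 by DESeq2, and 23 had an unadjusted p-value under 0.05 (23.7%, against 9.73% of all genes tested). The groups did not overlap in 21 of them, 7 with higher and 14 with lower values (21.6%, against 1625 of the 16251 genes tested). Their median difference was -0.01 on the log2 scale, with 45 higher and 52 lower values, and their median absolute difference was 0.13, against 0.09 over all genes tested and 1.63 in the 8. Since the 8 were chosen on this contrast, their median is set by the choice.

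**Figure D2:**
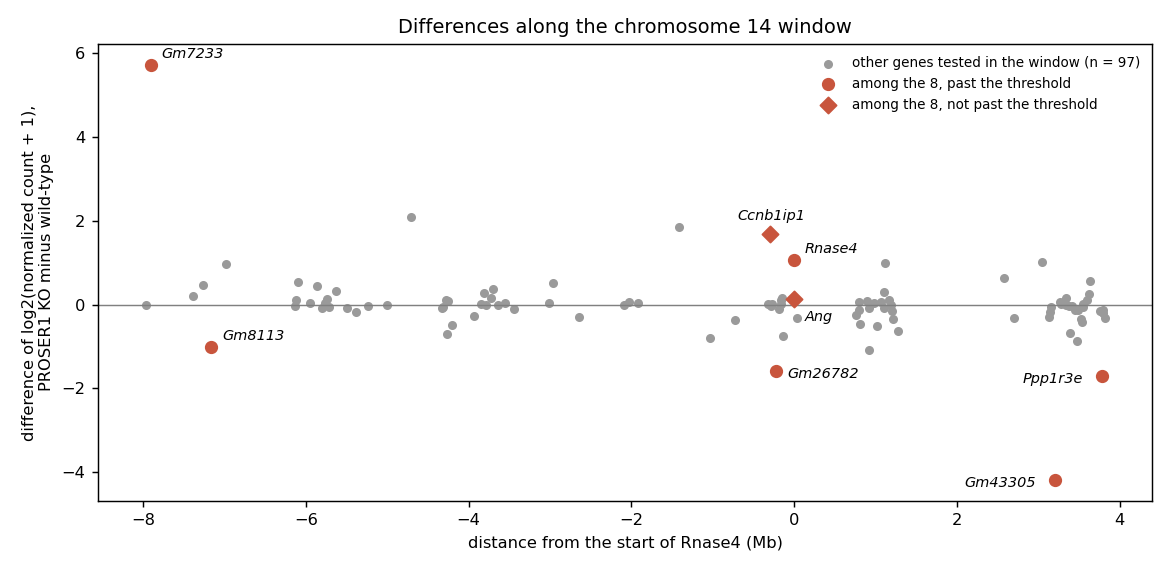
Difference of log2(normalized count + 1) between 3 PROSER1 KO and 4 wild-type libraries (vertical axis) against the distance from the start of Rnase4 in Mb (horizontal axis) for the 105 genes tested in the window, with the 8 genes in red and the other 97 in grey. Higher and lower genes of the 8 are interspersed along the window, and most grey points lie near 0.

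Peli2, a ubiquitin ligase of Toll-like receptor signalling, had normalized counts of 924, 914, 959 and 879 in wild-type and of 1415, 1224 and 1289 in those labelled PROSER1 KO. Its difference of 0.51 (adjusted p = 0.0199 from limma) fell short of the 1.5-fold minimum. Slc7a8, a transporter of neutral amino acids, had 2131, 2215, 2646 and 2301 against 3074, 3624 and 3572, a difference of 0.56 (adjusted p = 0.0329 from limma), also below the minimum. Both were higher without overlap between the groups.

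The 2 genes that DESeq2 added were Bmp4 and Ajuba. Bmp4, a secreted growth factor, had 16.3, 17.1, 5.75 and 18.5 normalized counts in wild-type, against 79.3, 34.7 and 78.7 in those labelled PROSER1 KO (difference 2.10, adjusted p = 0.158 from limma). Ajuba, a LIM domain scaffold protein, had 106, 161, 114 and 109 against 79.3, 65.2 and 53.8 (difference -0.88, adjusted p = 0.204 from limma). Of the rest of chromosome 14, limma called 1 further gene, Wdfy2, which lies outside the window from 62837678 to 62961509. It had 764, 618, 682 and 635 normalized counts in wild-type, against 348, 388 and 373 in those labelled PROSER1 KO. Together 7 of 515 tested genes of chromosome 14 were called (1.36%), 6 of them being among the 8.

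The genes beside each of the 8 were compared next, taking on each side the nearest gene that passed the filter on the mean and does not overlap it. Of these 13 distinct genes 0 were called by limma, edgeR or DESeq2. An unadjusted p-value under 0.05 (limma) was found in 3, beside 9.73% of all genes tested. The lowest adjusted p-value was 0.342 (limma, Bcl2l2). Their differences ran from -0.75 in Pnp2, a purine nucleoside phosphorylase, to 0.96 in Ear2, an eosinophil-type ribonuclease. In 2 of them, Pnp2 and Bcl2l2, the groups did not overlap, with lower values (4.83% of all genes tested).

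Parp2, a DNA repair enzyme gene that lies 0.109 kb from the upstream end of Ccnb1ip1, had 2357 to 2444 normalized counts in wild-type, against 2308 to 2441 in those labelled PROSER1 KO (difference -0.03, adjusted p = 0.900 from limma). On the other side of Ccnb1ip1, Ttc5 had a difference of 0.00. Homez and Bcl2l2, on either side of Ppp1r3e, had differences of -0.15 and -0.20. Abhd4 and Oxa1l, on either side of Gm43305, had -0.06 and 0.06.

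**Figure D3:**
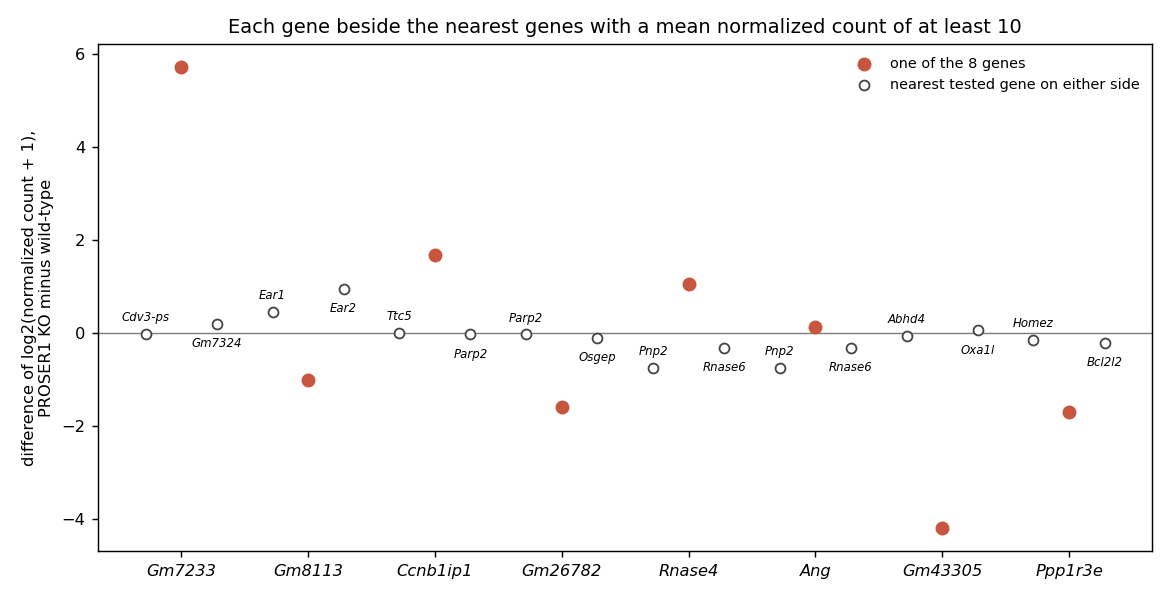
Difference of log2(normalized count + 1) between PROSER1 KO (n = 3) and wild-type (n = 4) libraries for each of the 8 genes (red) and for genes beside it (open circles). These are the nearest tested genes that do not overlap it, on the lower-coordinate (left) and higher-coordinate (right) side. Overlapping genes, such as Tep1 for Gm26782, are not among the open circles. The open circles lie between -0.75 and 0.96, and for Gm26782 and Ppp1r3e both lie on the same side of 0 as the red point.

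The other members of the ribonuclease A family showed no called gene among the 4 tested (limma, lowest adjusted p = 0.470), and 1 had an unadjusted p-value under 0.05. Rnase6, an antimicrobial ribonuclease 17.8 kb from Rnase4 and its most abundant relative here, had normalized counts of 1405, 1194, 1215 and 1698 in wild-type and of 1235, 981 and 1101 in those labelled PROSER1 KO. The groups overlapped (difference -0.31). Ear1, Ear2 and Ear6, eosinophil-type ribonucleases with long shared sequence, stood at 0 to 37.5 normalized counts.

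Rnase12 had 22.1, 18.0, 6.90 and 9.27 normalized counts in wild-type, against 0, 3.38 and 2.88 in those labelled PROSER1 KO. It did not overlap, but its mean lay below the filter and it was not tested. Of the 20 family genes in the table, 9 were at 0 in all libraries, among them Rnase1 and Ang2. The cytosolic ribonuclease inhibitor gene Rnh1, whose product binds angiogenin, had 3991 to 4233 against 3870 to 4271 normalized counts (difference -0.03), and 0 of the 9 genes of its list were called (limma, lowest adjusted p = 0.777, with 0 at an unadjusted p-value under 0.05).

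Around Ccnb1ip1, 9 other meiotic crossover factors were tested, from a list chosen with earlier results of these data known. In PROSER1 KO libraries 7 had higher and 2 lower values. An unadjusted p-value under 0.05 was found in 3 (9.73% of all genes tested). By limma 1 of the 9 was called and was higher, against 0.123% of all genes tested that were called as higher. This was Cntd1, which encodes a cyclin-like crossover maturation factor, with normalized counts of 187, 188, 198 and 218 in wild-type and of 395, 389 and 395 in those labelled PROSER1 KO. The difference was 0.99 (adjusted p = 0.00627 from limma), and 3 of 3 PROSER1 KO libraries lay above every wild-type library. It was called in all alternatives tried. Among the genes of the 6 family and pathway lists that are not among the 8, edgeR called 1, Cntd1, and DESeq2 called 2, Cntd1 and Tex11.

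Tex11, an X-linked crossover factor, had no read pair in wild-type and 32.3, 42.3 and 6.72 normalized counts in those labelled PROSER1 KO (adjusted p = 0.0521 from limma). It passed the filter on the mean only through the libraries labelled PROSER1 KO, so its calls are given as a description. It was called by limma without a filter on low values (0.176% of the genes tested called), with robust variance estimates (0.492%) or without PROSER1 KO replicate 3, and by DESeq2. Dmc1, the meiotic recombinase, had a difference of 0.69 with overlapping groups, and Rnf212, the partner of the Ccnb1ip1 product in meiosis, was at 0 in all libraries.

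**Figure D4:**
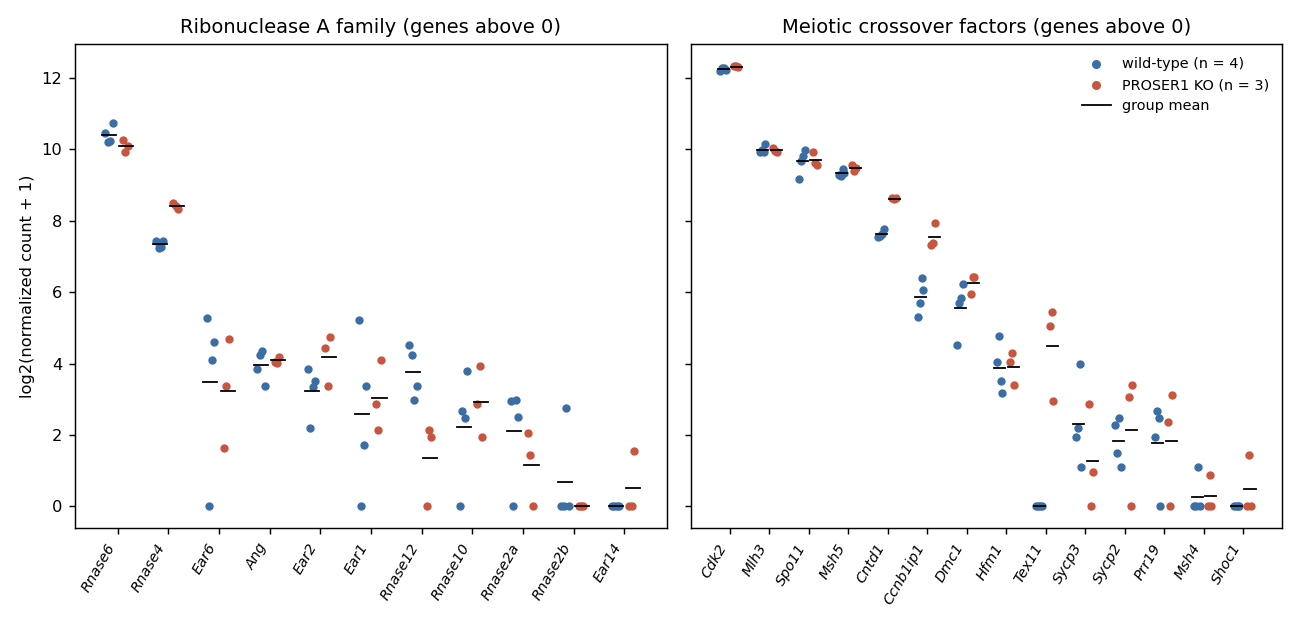
log2(normalized count + 1) of the ribonuclease A family (left) and of meiotic crossover factors (right) in 4 wild-type (blue) and 3 PROSER1 KO (red) libraries, 1 point per library, with a black line at each group mean, for the genes reported here that were above 0 in at least 1 library. Rnase4, Cdk2, Ccnb1ip1, Cntd1 and Tex11 have all red points above all blue points, and Rnase6, Ang and Dmc1 overlap.

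For Ppp1r3e, the 6 other phosphatase subunits tested held 0 called genes (limma, lowest adjusted p = 0.542, with 0 at an unadjusted p-value under 0.05). The related targeting subunits Ppp1r3b and Ppp1r3d had differences of -0.02 and -0.04, and Ppp1r3f had -0.54 (57.4, 44.8 and 73.9 against 64.4 to 110 normalized counts, overlapping). The catalytic subunits Ppp1ca, Ppp1cb and Ppp1cc lay between 0.01 and 0.07. Of 18 enzymes of glycogen metabolism 0 were called (limma, lowest adjusted p = 0.497, with 1 at an unadjusted p-value under 0.05), with differences from -0.19 to 0.35. The glycogen synthase gene Gys1 had -0.13 and the phosphorylase gene Pygl 0.05.

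Cyclin B, its kinase and regulators were of interest because the Ccnb1ip1 product was first found as a binding partner of cyclin B1. Of these 9 genes 0 were called (limma, lowest adjusted p = 0.472, with 1 at an unadjusted p-value under 0.05). In PROSER1 KO libraries 7 had higher and 2 lower values (median difference 0.13, highest 0.32). Ccnb1 had 1847 to 2479 normalized counts in wild-type, against 2030 to 2517 in those labelled PROSER1 KO (difference 0.18). Macrophages and stromal cells, 2 cell types known to make ribonucleases of this family, were followed by their markers. The 8 macrophage markers summed to between 304 and 706 normalized counts in wild-type, against 432 to 807 in PROSER1 KO libraries. The 8 stromal and endothelial markers summed to between 7213 and 8938 and between 8392 and 8977. Both ranges overlapped. By gene, 6 of the 8 macrophage markers had higher values in PROSER1 KO libraries (median difference 0.28, highest 0.94 in C1qa), as had 5 of the 8 stromal and endothelial ones (median 0.44, highest 1.59 in Cxcl12), against a median of 0.00 over all genes tested. The groups overlapped in every marker of these 2 lists. Markers of eosinophils were in 1 list with those of mast cells and basophils, which leaned the other way. Of its 6 genes tested, 2 had higher and 4 lower values (median difference -0.53, lowest -1.60). An unadjusted p-value under 0.05 (limma) was found in 2. The list summed to between 4197 and 9576 in wild-type and between 3927 and 5351 in PROSER1 KO libraries. Of the 68 markers of all 8 lists, 0 were called by limma and by edgeR and 1 by DESeq2 (Mcpt8, a basophil protease), and 7 had an unadjusted p-value under 0.05. No macrophage or stromal marker was among those called, and their part in the level of Rnase4 was not tested.

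As a description over the 7 libraries, in which 2 group levels fix most of any correlation, the genes closest to Rnase4 by Pearson's r of log2(normalized count + 1) were Pgrmc1 (0.995), Clec10a (-0.991) and Gm5103 (-0.988). Gm8113 and Gm26782 each had the other and Ppp1r3e among their 3 closest genes (r between 0.988 and 0.994). PROSER1 KO replicate 1 was the highest of its group in Gm8113, Gm26782 and Ppp1r3e. Gm7233 was closest to Rps26-ps1 (0.996), Gm5103 (-0.996) and Kcnab2 (-0.990), and Gm43305 to Rps26-ps1 (-0.994), Ccdc61 (0.993) and Gm7233 (-0.989). Ccnb1ip1 was closest to Zfp773 (0.994), Eif2ak2 (0.993) and Kctd12 (0.992). Ang, whose groups did not differ in level beyond their spread, was closest to Mmachc (0.990), Gabarap (-0.988) and Zbed3 (0.987). Ppp1r3e was closest to Arl14ep (-0.990), Ccdc61 (0.990) and Gm26782 (0.989), and Gm8113 was not among its 3 closest.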

How the data were processed

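RNA-seq libraries of sorted LSK cells were assigned to 2 groups by their labels, 4 wild-type and 3 PROSER1 KO. After Trimmomatic, STAR (mm10) and featureCounts on read pairs, the authors scaled each library by a DESeq2 size factor and deposited the resulting normalized signal per gene. The methods name GENCODE release 25 and the header of the deposited table release 10, so which release was counted is uncertain. Positions, exons and transcripts here are those of release M21 (GRCm38), which placed 48058 of 48440 gene IDs, and FPKM was computed from its exon lengths. Every value was a whole multiple of its library's step, so read pairs were recovered (100% of values whole within 0.01). Columns of no sample numbered 0. The 685 genes that have no symbol (up to 0.135% of a library) were kept.

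limma 3.58.1 in R 4.3.3 (lmFit, eBayes with trend) was run on log2(normalized count + 1) of the 16251 genes with a mean of at least 10. Fold changes on this scale are understated for low genes. On recovered read pairs, edgeR 4.0.16 (quasi-likelihood) called 40 genes (0.246%) and DESeq2 1.42.0 called 165 of 18903 (0.873%), against 42 with limma. Each library held 33143619 to 45140743 read pairs, and limits from counts cover counting error only. The procedures were checked on simulated counts.

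Transcripts were compared by exact 50-base windows on both strands. The shares given thus include windows that occur in reverse orientation in another gene's transcripts. Start regions of 5 of the 8 genes came from RefSeq (GRCm38.p6), and none was given for Gm7233, Gm8113 and Ppp1r3e. The 8 genes, the family lists and the marker lists were chosen with earlier results of these data known. Named genes were the 8, Proser1, the nearest and overlapping genes, called genes of the window and lists, up to 4 abundant genes per list, genes that share sequence, and the 3 closest by correlation. Other genes were named after their values were seen, and a listed gene is not reported here. As alternatives, the pseudocount was set to 0.1 or 10, the filter was dropped or raised to a mean of 50, eBayes was run without the trend or robustly, values were normalized by quantiles or TMM, edgeR or DESeq2 replaced limma, the fold minimum was dropped, the replicate number was a block, and single libraries were omitted.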

Additional observations from a re-analysis of the deposited data

Results flagged for a closer look

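Of 83 genes screened, 4 had a wild-type library set apart from the other 3 (Dixon's test), none of them among the 8, where chance flags about 1 in 20 groups. Ajuba was highest in wild-type replicate 2, at 161 normalized counts, with a gap of 0.856 of the range. Bcl2l2, which lies beside Ppp1r3e, was lowest in the same replicate, at 1203 (0.960 of the range). Gm42031, which shares sequence with Gm43305, was highest in wild-type replicate 1, at 90.4 (0.840 of the range), and Ccnb2 was highest in wild-type replicate 3, at 2565 (0.869 of the range).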

How the results depend on the processing

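Of the 8 genes, between 5 and 7 were called in every alternative, and 6 to 7 with single libraries omitted. Rnase4, Gm26782, Gm43305 and Ppp1r3e were called in all 20 fits, Gm7233 (past the filter only through PROSER1 KO libraries) in all 19 that tested it, Gm8113 in 19 of 20, Ccnb1ip1 in 5 of 20 and Ang in 0 of 19. The fitted difference of Gm7233 was 9.03 at a pseudocount of 0.1, 2.64 at 10, 8.75 with edgeR and 8.12 with DESeq2, as its wild-type libraries are at 0. The differences of the other genes kept their direction, except that of Ang (-0.06 to 0.27).

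Over all genes, 42 were called, 17 without the mean-variance trend, 80 with robust variance estimates, 165 with DESeq2, and 23 (without PROSER1 KO replicate 2) to 42 with 1 library left out. Of the other genes in the window, 0 were called, 2 with DESeq2, 2 without the fold change minimum, and 0 to 1 with 1 library left out, which was Slc7a8 without wild-type replicate 3 or PROSER1 KO replicate 1. Of the list genes, 1 was called, 2 without a filter on low values, 2 with robust variance estimates, 2 with DESeq2, and 1 to 2 with 1 library left out. The causes of these moves were not tested.

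Libraries of the 2 groups share replicate numbers, but same-numbered libraries did not deviate together (r = 0.02, 0.06 and -0.11), so the numbers were not taken as pairs. With the replicate block, which drops wild-type replicate 4 as it has no partner, 35 genes were called, 7 of the 8, 0 others in the window and 1 of the lists. Depth limits Ang, at 8 to 20 read pairs per library, and Gm7233, with 0 in each wild-type library.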
